A study of Rattus norvegicus with 72 samples.

Results

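The cytosolic ribosome is the machine that translates messenger RNA into protein, and the genes described here encode its protein parts. Probe sets were taken whose only gene symbol was that of a cytosolic ribosomal protein, leaving out S6 kinases, pseudogenes and numbered like genes, and each gene was read at its brightest probe set. This gave 45 genes of 14217 genes with a probe set of a single symbol, and 51 of the 31042 probe sets. Of them 28 encode proteins of the large (60S) subunit and 14 of the small (40S) subunit, 1 (Rplp0) encodes the base of the ribosomal stalk, and 2 (Rpl3l and Rps27l) are paralogs. The measured genes are part of the family: a further 35 probe sets carry several ribosomal protein or pseudogene symbols and were kept apart.

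The rats were pregnant or lactating, at standard gravity or in hypergravity, and their mammary gland, liver and adipose tissue were each profiled (60 arrays). A further 12 arrays hold pregnant mammary gland in microgravity, with a flight control and a vivarium control. All 15 groups were deposited on 72 Affymetrix arrays. Each of the 12 groups at standard gravity and hypergravity had 5 arrays as labelled. The mammary array M210H and the adipose array A210H, both of lactating hypergravity, went against their labels and were left out. Their milk protein genes averaged 3.11 log2 units on M210H and 13.07 on A210H, while the other mammary arrays of that group had 12.94 to 13.02 and the other adipose arrays 3.16 to 3.55. That left 4 arrays in those 2 groups and 58 in all, and each microgravity group also had 4. The labels give no strain, age, day of pregnancy or lactation, or strength of hypergravity, and they do not describe the flight control. The rat code in the titles ties the 3 tissues of an animal together at standard gravity and in hypergravity. Nothing in the labels says that the 4 arrays of a microgravity group were separate animals, so p-values measure the spread between arrays.

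Ribosomal proteins are made in near-equal amounts since a ribosome holds most of them in equal number, and their messenger RNAs are among the most abundant in any cell. Most of these messages begin with a C followed by a run of pyrimidines, the terminal oligopyrimidine (TOP) tract, through which mTOR signalling controls how much they are translated, a step that message levels do not show. A lactating mammary gland makes and exports large amounts of milk protein.

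The family lay at the top of the scale on every array. Values are log2 signals, so 1 unit is a 2-fold difference, and levels of different genes are not compared, since probes differ in brightness. The median of the 45 genes stood at the 98.6th to the 99.7th percentile of all probe sets on the 58 arrays. The array medians were 4.32 to 4.56 log2 units, and 41 of the 45 genes averaged over 7 log2 units. The probe sets of Rpl28, Rpl30, Rpl3l and Rps4y2 averaged under 7 log2 units, so changes at these 4 rest on dim probes. Rpl28 (3.06) and Rpl30 (3.98) averaged below the array medians, and Rps13 averaged 7.50. Brighter probe sets that name Rpl28 (11.99), Rpl30 (12.55) or Rps13 (11.45) along with other symbols were among those kept apart. Calls of these 3 genes therefore do not rest on their brightest signal. Rps23, a protein of the decoding centre, read 12.96 ± 0.03 log2 units (SD, n = 5) in pregnant mammary gland at standard gravity, 12.43 ± 0.07 in liver and 12.71 ± 0.07 in adipose tissue. Rps24, also of the small subunit, read 12.85 ± 0.18, 12.37 ± 0.05 and 12.79 ± 0.12 in the same order. Rpl5 and Rpl11, which with 5S RNA form the particle that restrains Mdm2, read 12.63 ± 0.16 and 10.99 ± 0.41 log2 units in pregnant mammary gland at standard gravity (SD, n = 5). Lactation brought no call for either there, at 12.83 ± 0.05 and 11.39 ± 0.29. Rps6, the small subunit protein that S6 kinases phosphorylate, read 12.84 ± 0.08 log2 units (SD, n = 5) in pregnant mammary gland at standard gravity, 12.39 ± 0.07 in liver and 12.66 ± 0.04 in adipose tissue.

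The widest difference was between tissues: ribosomal protein messages were lowest in liver. The mean of the 45 genes ran from 10.56 to 10.89 log2 units on the 20 liver arrays and from 10.79 to 11.14 on the 19 adipose arrays. On 18 of the 19 mammary arrays it ran from 10.93 to 11.38, above every liver array. The exception was M60H, a pregnant hypergravity mammary array, at 10.55. Among the 41 brighter genes at standard gravity, liver had the lowest mean of the 3 tissues for 38 in pregnancy and 39 in lactation. Mammary gland had the highest for 33 in pregnancy and 37 in lactation. Adipose RNA was extracted with a different kit from that of mammary gland and liver, so adipose tissue and its kit cannot be told apart. In bulk tissue, fewer cells of a type and less RNA per cell cannot be told apart.

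**Figure D1:**
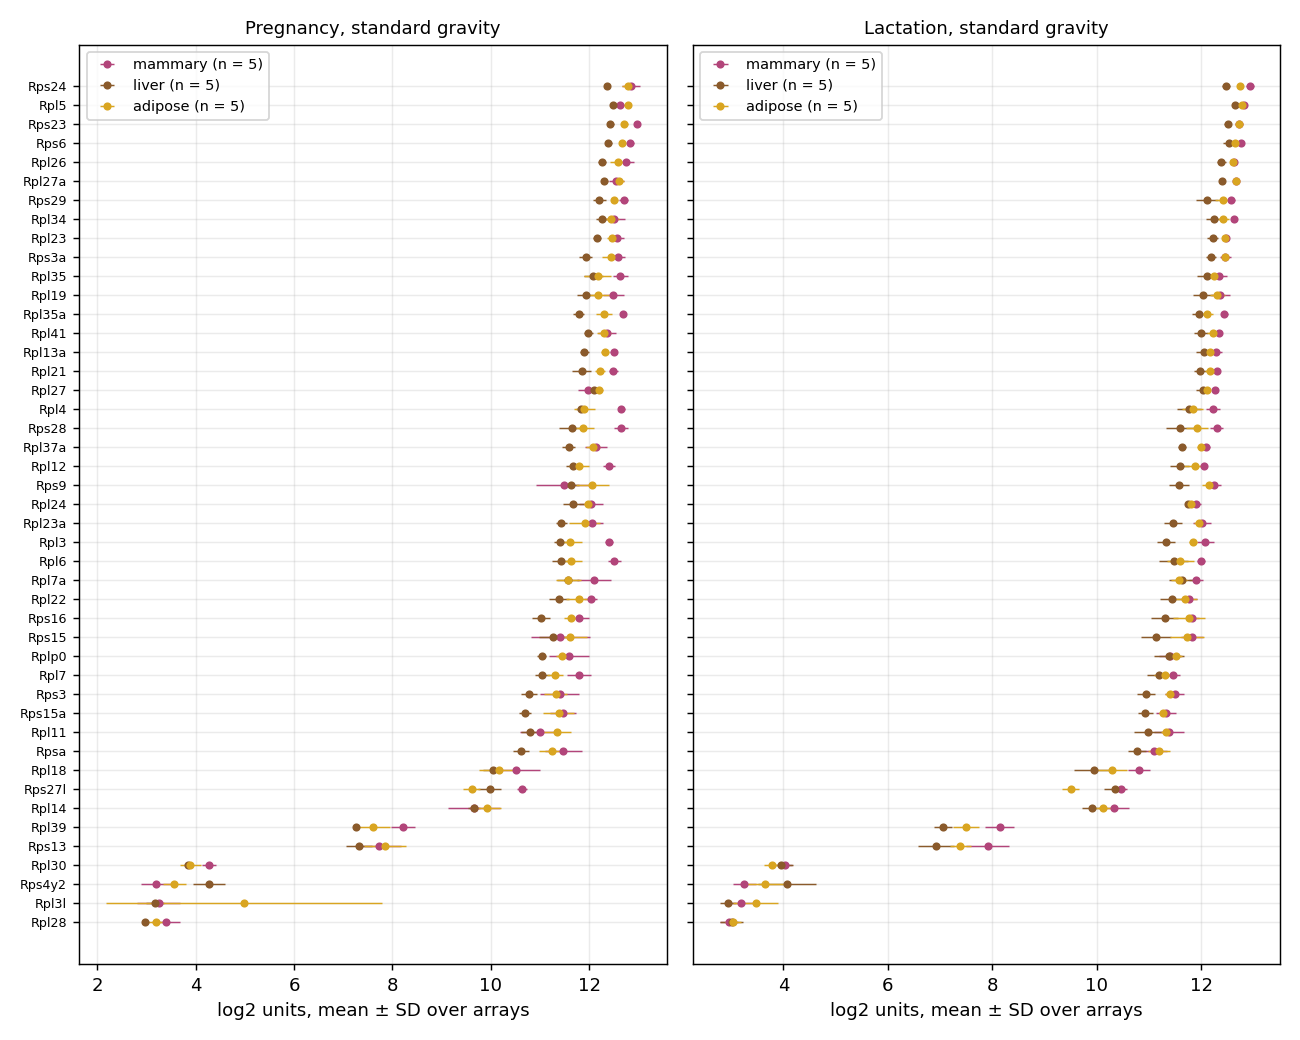
Mean level (points, log2 units) with SD over arrays (bars) of the 45 ribosomal protein genes in mammary gland, liver and adipose tissue at standard gravity, in pregnancy (left) and lactation (right), 5 arrays per group. Liver is lowest for 38 of the 41 brighter genes in pregnancy and 39 in lactation. The wide bar of Rpl3l in pregnant adipose tissue comes from 1 array at 9.80.

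Between mammary gland and liver in pregnancy 33 of the 45 genes were called higher in mammary gland and 1 lower (limma, Benjamini-Hochberg adjusted p under 0.05 over all probe sets). That is 75.6% of the members, against 50.4% of all probe sets called in either direction, 25.1% called higher and 25.3% lower. The median difference of the members was 0.54 on the log2 scale (1.45-fold), and that of all probe sets was -0.08. Rpl6, a protein of the large subunit, had the largest called difference, with all 5 mammary arrays (12.28, 12.52, 12.56, 12.59 and 12.60 log2 units) above all 5 liver arrays (11.12, 11.46, 11.48, 11.54 and 11.55). Its difference was 1.08 ± 0.12 (SE, limma, adjusted p = 4e-11). Rpl3, a core protein near the peptidyl transferase centre, differed by 1.01 ± 0.11 (limma, adjusted p = 5.7e-11), from 11.40 ± 0.12 log2 units in liver (SD, n = 5) to 12.41 ± 0.09. Its second, dimmer probe set moved the same way (1.20). Rps28, a small subunit protein at the messenger exit, differed by 1.00 ± 0.13 and did not overlap between tissues. Of the large subunit 21 of 28 genes were higher and of the small subunit 10 of 14. The one gene called lower was Rps4y2, a relative of Rps4x, at 3.20 ± 0.31 log2 units in mammary gland and 4.27 ± 0.33 in liver, a dim signal in both. Rpsa, the laminin receptor protein of the small subunit, was higher by 0.86 at its brightest probe set (adjusted p = 6.3e-05, limma) and by 0.56 at its dimmest (adjusted p = 0.0079), while the remaining probe set was not called (-0.28, adjusted p = 0.42).

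In lactation the mammary gland again stood above the liver, for 29 genes with 1 lower, against 35.4% of all probe sets called, 19.6% higher and 15.8% lower. The median difference was 0.33 (1.26-fold). Among genes whose arrays did not overlap between tissues, the largest were those of Rpl39 (1.08 ± 0.20), which lies in the exit tunnel, Rpl18 (0.87 ± 0.23), Rpl3 (0.76 ± 0.11) and Rps28 (0.70 ± 0.13). Rps13, read at a probe set averaging 7.50 log2 units, differed by 0.99 ± 0.23 with arrays that overlapped. Rps4y2 was again the one called lower, on a dim signal. Both stages shared 24 of the higher genes, Rpl3, Rpl4, Rpl6, Rpl35a, Rps6 and Rps28 among them. The lactation call of Rps6 (0.22 ± 0.06) was lost with new quantile normalization (0.12, limma adjusted p = 0.16), with median centring (0.11, adjusted p = 0.19) and in a fit of the compared groups alone (adjusted p = 0.083). With each array centred on its own median, the median of all probe sets between mammary gland and liver moved from -0.08 to -0.22 in pregnancy and from -0.01 to -0.12 in lactation. The members then stood at 0.40 and 0.22, higher in mammary gland by both scalings, and the number called fell to 30 in pregnancy and 15 in lactation. Of all probe sets 58.6% and 37.9% were called with that centring. In lactation the share of members called in either direction was then below that of all probe sets. Lists of other genes of the pathway were counted in the same pregnancy fit, where 50.4% of all probe sets were called, 25.1% higher and 25.3% lower. Of 47 ribosome assembly factors 30 were higher and 4 lower in pregnant mammary gland than in liver, and of 17 other genes with TOP messages 12 were higher and 1 lower. The 73 measured mitochondrial ribosomal protein genes, which serve the separate ribosome of that organelle, divided into 16 higher and 21 lower, a share called near that of all probe sets.

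Mammary gland and adipose tissue were closer. In pregnancy 16 members were higher in mammary gland and 2 lower (41.2% of all probe sets were called, 20.9% higher and 20.4% lower), with a median of 0.17. Rpl6 (0.88 ± 0.12), Rpl3 (0.79 ± 0.11), Rps28 (0.78 ± 0.13), Rpl4 (0.75 ± 0.10) and Rpl12 (0.61 ± 0.09) were among them and did not overlap. In lactation 6 were higher and none lower (29.9% called, 14.8% higher): Rpl4, Rpl6, Rpl35a, Rpl39, Rps28 and Rps27l. The share of members called higher there (13.3%) was near that of all probe sets called higher. Liver stood below adipose tissue for 22 members in pregnancy, with 1 above (36.0% called, 17.7% higher and 18.2% lower), and for 11 in lactation, with 1 above (33.0% called, 15.1% higher and 17.9% lower). In pregnancy these were led, among genes whose arrays did not overlap, by Rps15a (-0.68 ± 0.15), Rps16 (-0.62 ± 0.19), Rps3 (-0.54 ± 0.21) and Rpl35a (-0.52 ± 0.08). Rps3, which lines the messenger entry and also acts in DNA repair, lost its call without any of several single arrays, A52S among them. In lactation Rpl3 (-0.52 ± 0.11), Rpl23a (-0.50 ± 0.11), Rpl37a (-0.36 ± 0.09) and Rps3a (-0.28 ± 0.08) led. The medians were -0.32 and -0.24 on the log2 scale. With median centring, which raised the median of all probe sets to 0.17 in both comparisons, they were -0.19 with 12 lower in pregnancy and -0.10 with 2 lower in lactation. Of all probe sets 42.6% and 38.6% were then called, above the share of members called at either stage. Rps3 in pregnancy (limma, adjusted p = 0.11) and Rpl37a (0.051) and Rps3a (0.24) in lactation lost their calls with that centring.

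**Figure D2:**
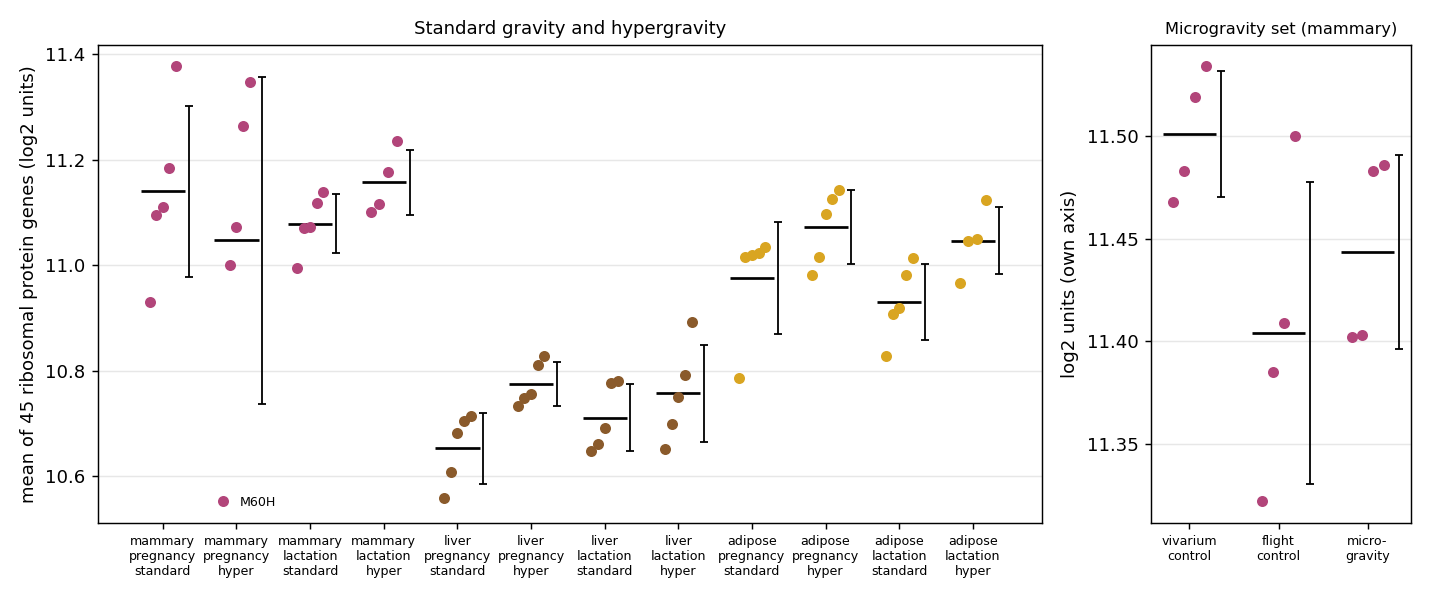
Mean of the 45 ribosomal protein genes (log2 units) on each array by group, with group mean (horizontal bar) and SD (vertical bar). The microgravity set, at right, has an axis of its own and is compared only within itself. Liver arrays lie between 10.56 and 10.89, and array M60H lies at 10.55 among pregnant mammary arrays.

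Rps27l and Rpl3l are paralogs of Rps27 and Rpl3. Rps27l is a relative of Rps27 that p53 induces, and in lactation it was higher in liver than in adipose tissue, by 0.84 ± 0.16 (limma, adjusted p = 2.2e-05), where 11 other members were lower. Its 5 lactating liver arrays read 10.02, 10.30, 10.40, 10.43 and 10.58 log2 units and its 5 adipose arrays 9.35, 9.37, 9.46, 9.63 and 9.70, with no overlap. Mammary gland was above adipose tissue at both stages, by 1.02 ± 0.16 in pregnancy (adjusted p = 5.8e-07, limma) and 0.96 ± 0.16 in lactation. From liver, mammary gland differed by 0.66 ± 0.16 in pregnancy (limma, adjusted p = 5e-04), and it was not called in lactation.

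Rpl3l, the form of Rpl3 found in skeletal and heart muscle, read under 5 log2 units on most arrays. In pregnant adipose tissue it read 9.80 log2 units on A48S and 3.02 to 4.98 on the other 4 arrays. In lactating hypergravity adipose tissue it read 8.03 on A217H and 3.67 to 4.35 on the other 3. On the mammary side M50H read 5.06, against 2.91 to 3.22 in its group, and M212H read 4.32, against 2.85 to 3.06. The mean of 13 skeletal muscle markers was 12.32 on A48S, and 8.45 on M50H, where the median of the 58 arrays was 4.17; its part in the Rpl3l values was not tested. The call of Rpl3l as lower in pregnant mammary gland than in adipose tissue (-1.73) was lost without A48S (-0.53, limma adjusted p = 0.41).

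**Figure D3:**
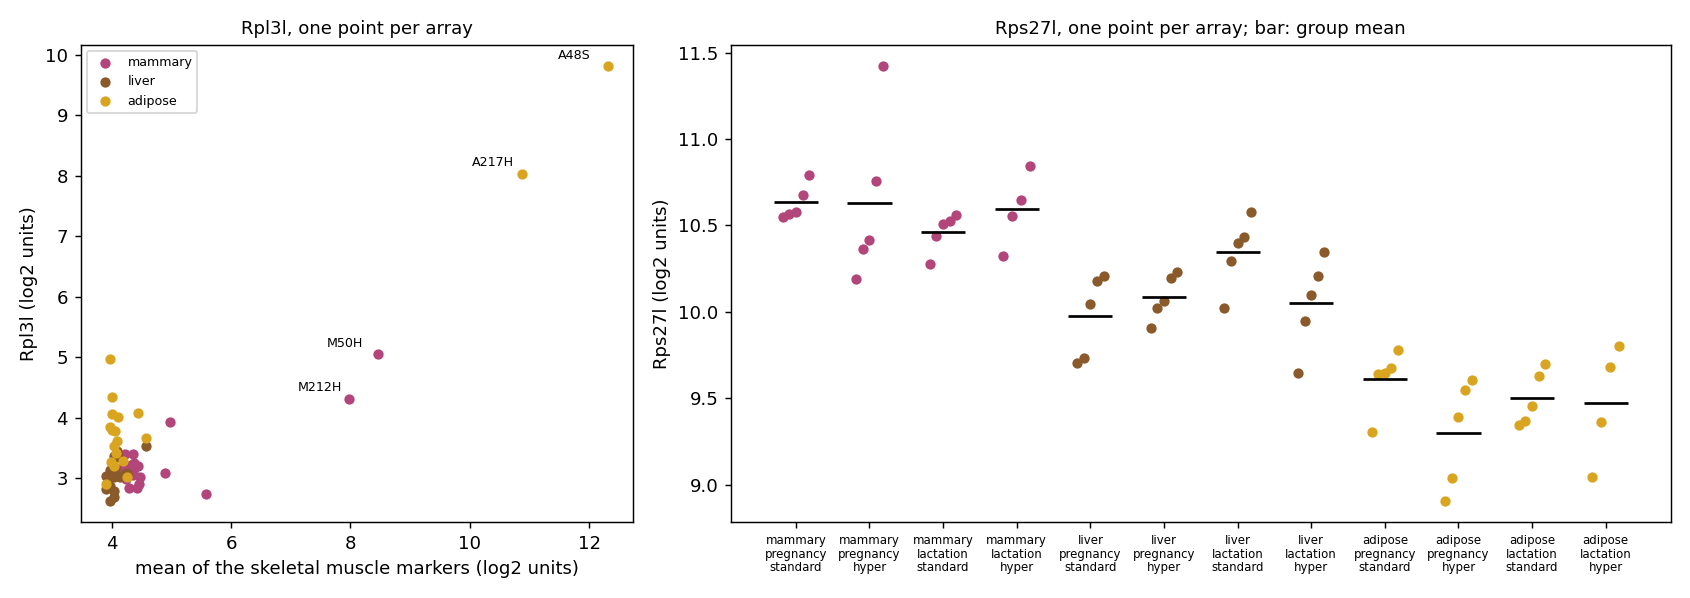
Left, Rpl3l against the mean of 13 skeletal muscle markers (both log2 units), one point per array of the 58 at standard gravity and hypergravity; A48S and A217H lie at the upper right at 9.80 and 8.03 for Rpl3l. Right, Rps27l (log2 units) on each of these arrays by group, with group means as bars; the adipose groups are lowest.

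The start of the transcript was searched for the TOP tract. RefSeq promoters of the rat assembly GRCr8 were found for 38 of the 45 members, and the 20 bases on either side of the annotated start were searched on the gene strand for a C followed by at least 6 more C or T, which makes a run of 7 or more. This was present in 26 of 38 members (68.4%), in 17.6% of all 33469 promoters and in 13 of 61 mitochondrial ribosomal protein genes (21.3%). Runs on the opposite strand were in 4 of the 38 (10.5%) and in 19.9% of all promoters. The windows below cover 15 bases before and 15 after the annotated start of 6 members named for the tissue and stage calls and of the paralog Rps27l, and the capitals mark the run or the part of it inside the window.
Rpl4 (chr8:73566462-73566491, plus strand): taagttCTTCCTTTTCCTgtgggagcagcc
Rpl35a (chr11:81235007-81235036, minus strand): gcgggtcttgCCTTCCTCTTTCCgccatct
Rps28 (chr7:15311319-15311348, minus strand): gcatcccctgctcacgtgaCTCCTCTCCgc
Rpl3 (chr7:113507976-113508005, minus strand): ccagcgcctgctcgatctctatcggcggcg
Rpl12 (chr3:36661925-36661954, plus strand): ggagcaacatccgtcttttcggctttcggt
Rpl6 (chr12:41011676-41011705, minus strand): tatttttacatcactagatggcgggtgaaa
Rps27l (chr8:76443643-76443672, plus strand): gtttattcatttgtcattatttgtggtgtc
Rpl4, Rpl35a and Rps28 hold a run, and Rpl3, Rpl12, Rpl6 and Rps27l hold none at their annotated start. A match is a description of letters, and the start used by the tissue may lie elsewhere.

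Lactation against pregnancy was the next comparison. In mammary gland at standard gravity 8 of the 45 genes fell and none rose, while 34.1% of all probe sets were called in either direction and 17.3% of all probe sets were called lower. The share of members called lower (17.8%) was near that background. The median of the members was -0.11 on the log2 scale and that of all probe sets -0.01. Rpl6 fell furthest: its 5 lactating arrays read 11.93, 11.97, 11.99, 12.01 and 12.12 log2 units, all below the 5 pregnant arrays given above. The difference was -0.51 ± 0.09 (SE, limma, adjusted p = 0.00042). Rpl4, a large subunit protein that lines the exit tunnel, read 12.56 to 12.72 log2 units in pregnancy and 12.09 to 12.43 in lactation (-0.42 ± 0.09, limma, adjusted p = 0.0012). Rpl12, at the base of the stalk, fell by 0.35 (adjusted p = 0.0053, limma) and Rps28 by 0.35 (adjusted p = 0.032, lost without any one of M42S, M48S, M52S, M201S, M214S and M216S, at 0.054 to 0.08). The other 4 were Rpl3, Rpl35a, Rps23 and the dim Rpl28. By subunit that is 6 of 28 large and 2 of 14 small subunit genes. Rps6 read 12.84 ± 0.08 log2 units in pregnancy and 12.76 ± 0.04 in lactation, and Rplp0 11.59 ± 0.40 and 11.40 ± 0.22, neither called. Without M48S 4 genes were called (29.5% of all probe sets) and without M52S, which carries liver genes, 5 were called (29.7%). With all probe sets centred on the array median 4 were called (34.0% of all probe sets), with a median of -0.08.

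Other lists moved in the mammary gland at the same time. Between pregnancy and lactation the mean of 12 luminal epithelium markers went from 8.72 to 9.38 down to 8.16 to 8.29 log2 units, that of 12 macrophage markers from 8.53 to 8.88 down to 7.35 to 7.76, and that of 19 cell cycle genes up from 5.65 to 6.12 to 6.69 to 8.45. None of these ranges overlapped, and their part in the result was not tested. Against the same background (34.1% called, 17.3% lower), of 47 assembly factors 17 fell and 7 rose, with a median of -0.27, and Rrp1 (-2.31) and Rrp12 (-1.88), both factors of ribosome precursor processing, fell while Nolc1, a nucleolar chaperone, rose (1.99). Of 17 other TOP genes 5 fell and none rose, led by the initiation factor subunits Eif3f (-1.49) and Eif3h (-1.17) and the poly(A) binding protein Pabpc4 (-1.01).

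In hypergravity 5 of the 45 genes fell and 3 rose with lactation (29.3% of all probe sets called, 14.6% each way). Rpl4, Rpl6 and Rps28 fell at both gravities. Rpl6 read 12.31, 12.50, 12.53, 12.61 and 12.62 log2 units in pregnancy and 12.09, 12.14, 12.21 and 12.28 in lactation, without overlap (-0.33 ± 0.10, limma, adjusted p = 0.017). Rpl4 read 12.57 to 12.75 in pregnancy and 12.19 to 12.34 in lactation (-0.44 ± 0.09, limma, adjusted p = 0.0022). The call of Rpl6 was lost without M203H (adjusted p = 0.057, limma), while Rpl4 kept its call in all 20 alternatives run for it. The other 2 that fell were Rpl35 and the dim Rpl30. On these arrays the cell cycle mean went down, from 5.75 to 6.14 log2 units in pregnancy to 4.68 to 5.41 in lactation, and the lymphocyte mean from 5.35 to 7.43 to 4.84 to 5.18. Neither range overlapped, and their part in the result was not tested. The 3 that rose were Rpl14 (1.31 ± 0.43), Rps9 (1.14 ± 0.40) and Rpl5 (0.33 ± 0.12), and their arrays overlapped. The second probe set of Rpl14 went the other way (-0.81, limma, adjusted p = 0.0015), so the direction of Rpl14 is not settled. Leaving out M60H left 5 genes lower and none higher (25.5% of all probe sets called), and turned the median of the members from 0.07 to -0.01. The count was 2 without M50H, M59H, M203H or M212H in turn, 3 without M206H and 5 without M217H. Of all probe sets 23.0% to 25.1% were called there. No member was called higher in these fits, except 1 without M203H, and their member medians were 0.03 to 0.08. Fits without another single array, where the count moved less, are not listed. The part of M60H in the rises was not tested. Rpl5 lost its call in each of the fits listed, without M60H, and with new quantile normalization (limma, adjusted p = 0.084). In a fit of the pregnant and lactating hypergravity arrays alone 1 gene was called, where 19.1% of all probe sets were called.

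**Figure D4:**
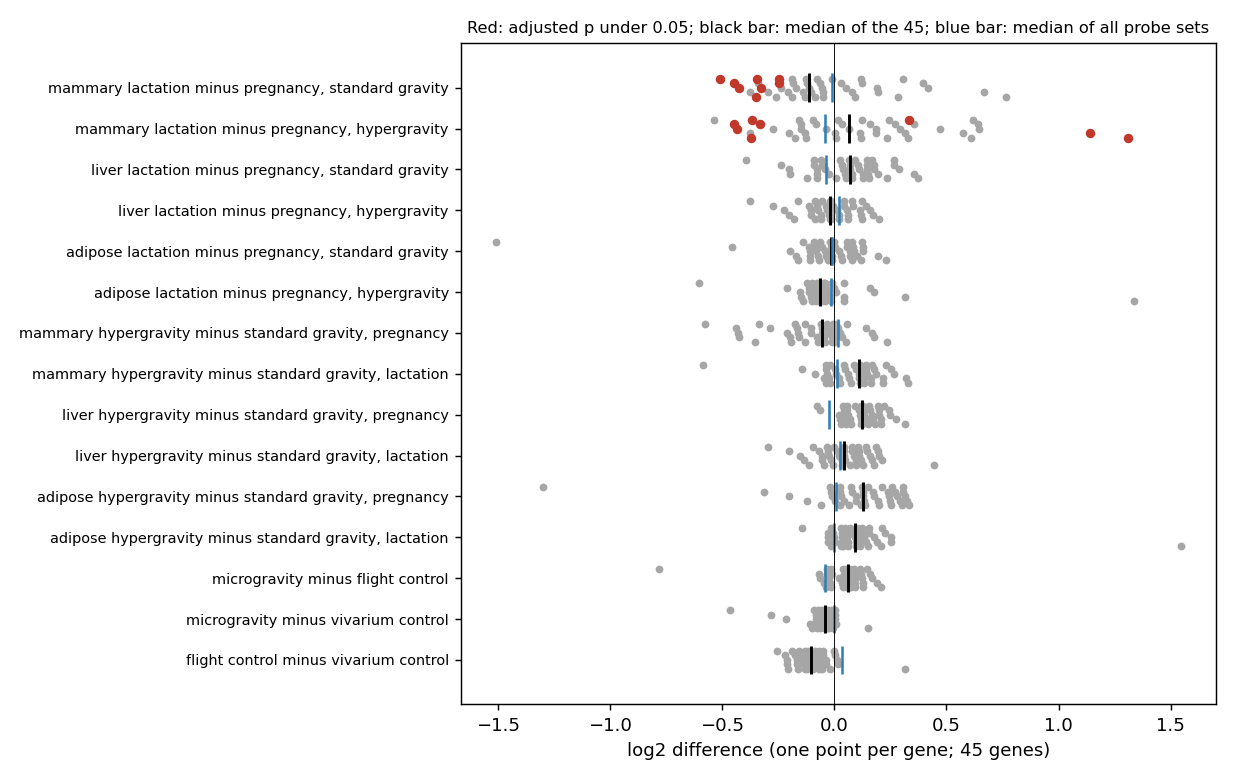
Log2 differences of the 45 ribosomal protein genes (one point each) for lactation against pregnancy, hypergravity against standard gravity and the microgravity set. Red points have an adjusted p under 0.05 (limma), black bars are the median of the 45 genes and blue bars that of all probe sets; red points are seen in the 2 mammary stage comparisons alone.

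In liver and adipose tissue no member was called between lactation and pregnancy (limma). At standard gravity the background was 0.622% in liver and 0.00322% in adipose tissue. In hypergravity it was 3.23% in liver and 0% in adipose tissue. At an unadjusted p under 0.05, 4 and 2 members passed at standard gravity in liver and adipose tissue, and 0 and 1 in hypergravity. The backgrounds are at the adjusted threshold and are no measure for these counts. In liver Rps3a, a small subunit protein, had the smallest p at standard gravity, at 0.27 ± 0.09, and the limma adjusted p was 0.24. The median of the members was 0.07 and -0.02 in liver, and -0.01 and -0.06 in adipose tissue.

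The difference of the stage effect between tissues was tested directly at standard gravity. For 6 genes the mammary stage effect was lower than that of liver (22.1% of all probe sets called, 11.4% lower): Rpl6 (-0.55 ± 0.17, limma, adjusted p = 0.012), the dim Rpl28, Rpl35a, Rps3a, Rpl13a and Rps23. Rps3a and Rpl13a were not called in either tissue alone: Rps3a stood at -0.11 ± 0.09 in mammary gland and 0.27 ± 0.09 in liver, and Rpl13a at -0.21 ± 0.09 and 0.15 ± 0.09. For 4 genes it was lower than that of adipose tissue (21% of all probe sets called, 11.7% lower), namely Rpl3 (-0.56 ± 0.16, limma, adjusted p = 0.0079), Rpl6, Rpl12 and Rps23. The shares of members called lower, 13.3% against liver and 8.9% against adipose tissue, were near those of all probe sets called lower. The call of Rpl6 against adipose tissue was lost without A44S, A52S, A202S, A219S, M48S, M52S or M201S in turn (limma, adjusted p up to 0.089), and that of Rpl28 without any of several arrays (up to 0.12, without L201S). Against adipose tissue Rps23 lost its call with dim probe sets filtered (adjusted p = 0.063, limma), median centring (0.087) and the compared groups alone (0.097), and Rpl12 without arrays carrying another tissue's markers (0.051) and from the compared groups alone (0.07). Rpl6 and Rps23 passed against both tissues, and these contrasts share the mammary arrays.

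Hypergravity against standard gravity called no member in any tissue at either stage (limma). The background was 0.00322% in pregnant and 9.43% in lactating mammary gland, 0.103% and 0.406% in liver, and 0% in adipose tissue at both stages. At an unadjusted p under 0.05 there were 0 and 2 members in mammary gland, 3 and 0 in liver, and 7 and 0 in adipose tissue, for pregnancy and lactation. The backgrounds given here are at the adjusted threshold and are no measure for counts at an unadjusted p. In lactating mammary gland 34 of the 45 differences were above 0, with a median of 0.11 where that of all probe sets was 0.01. Rpl12 had the smallest p there: 12.05 ± 0.07 log2 units at standard gravity and 12.27 ± 0.10 in hypergravity, without overlap (0.22 ± 0.10, limma, adjusted p = 0.20). On the same arrays 7 of 47 assembly factors were called lower and 1 higher. Between standard gravity and hypergravity the luminal mean went from 8.16 to 8.29 up to 9.07 to 9.36 log2 units, and the macrophage mean from 7.35 to 7.76 up to 8.02 to 8.74. The cell cycle mean went from 6.69 to 8.45 down to 4.68 to 5.41, and the mean of the 17 other TOP genes from 10.39 to 10.62 up to 10.76 to 10.84. None of these 4 ranges overlapped, and their part in the result was not tested. In pregnant liver 43 of 45 differences were above 0, with a median of 0.12 (1.09-fold) where that of all probe sets was -0.02. The group means of the 45 genes were 10.65 ± 0.07 and 10.78 ± 0.04 (SD, n = 5), and the ranges, 10.56 to 10.71 and 10.73 to 10.83, did not overlap. In adipose tissue 37 of 45 were above 0 at both stages, with medians of 0.13 and 0.09 where those of all probe sets were 0.009 and -0.003. Genes of an array share its labelling and scaling, so these are not counts of independent genes. The share of all probe sets above 0 is not given here. Rpl3l differed by -1.30 ± 1.01 in pregnancy and 1.55 ± 1.07 in lactation, and the 2 arrays with the most muscle signal, A48S and A217H, are in these comparisons. Stage by gravity interactions called no member in any tissue, with a background of 4.03% in mammary gland, 0.126% in liver and 0% in adipose tissue, and 2, 0 and 0 members at an unadjusted p under 0.05. The hypergravity effect in lactation was not called different between mammary gland and liver (background 4.70%) or adipose tissue (4.67%) for any member, and no member passed an unadjusted p under 0.05 in either.

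In the microgravity set no member was called in the 3 comparisons (limma). Microgravity against flight control had a background of 0.367% and 1 member at an unadjusted p under 0.05, Rpl3l (-0.78 ± 0.28). Microgravity against vivarium control had 0.493% and none. Flight against vivarium control had 0.00322% and none. These backgrounds are at the adjusted threshold and are no measure for the unadjusted counts. The means of the 45 genes were 11.44 ± 0.05 in microgravity, 11.40 ± 0.07 in flight controls and 11.50 ± 0.03 in vivarium controls (SD, n = 4). These comparisons share groups. The members were lower in flight than in vivarium controls for 41 of 45 (median -0.10, all probe sets 0.034), lower in microgravity than in vivarium controls for 40 (median -0.04, all probe sets -0.001), and higher in microgravity than in flight controls for 33 (median 0.06, all probe sets -0.043). Genes of an array share its labelling and scaling, so these are not counts of independent genes. Rpl6 read 12.77 ± 0.03, 12.64 ± 0.15 and 12.78 ± 0.04 in the same order of groups. The mean of 11 lymphocyte markers was 6.08 to 8.88 in flight controls and 5.81 to 6.05 in vivarium controls. The skeletal muscle mean was 7.74 on VIVA and 7.87 on VIVC, and 4.05 to 4.43 on the other 10 arrays. The part of either list in these values was not tested. Without the arrays that carried another tissue's markers, limma again called 0 members in each of the 3 comparisons.

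The members did not vary as one within the mammary groups. On M60H 9 genes stood more than 1.5 log2 units below the median of the other 4 arrays of the group. Rpl14 read 7.38 log2 units there and 8.66, 8.99, 10.16 and 10.23 on the others, and Rplp0 read 9.48 against 11.12, 11.18, 11.74 and 12.28. Rps3, Rps9, Rps15, Rps16, Rpl18, Rpl24 and Rpl27 were the other 7. At the same time 23 genes were within 0.5 of that median: Rpl4 was at 0.10, Rpl13a at 0.02, Rps3a at -0.03 and Rpl6 at -0.07. Rps27l was 1.03 above it. The lymphocyte marker mean was 7.43 on M60H and 5.35 to 5.88 on the other 4, and that of the luminal markers 8.45 and 9.18 to 9.29; their part in the result was not tested. The array with the most members over 0.5 above its group median was M55H, with 12, followed by M56H with 8, and M56H also carries liver genes (a hepatocyte marker mean of 9.77).

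**Figure D5:**
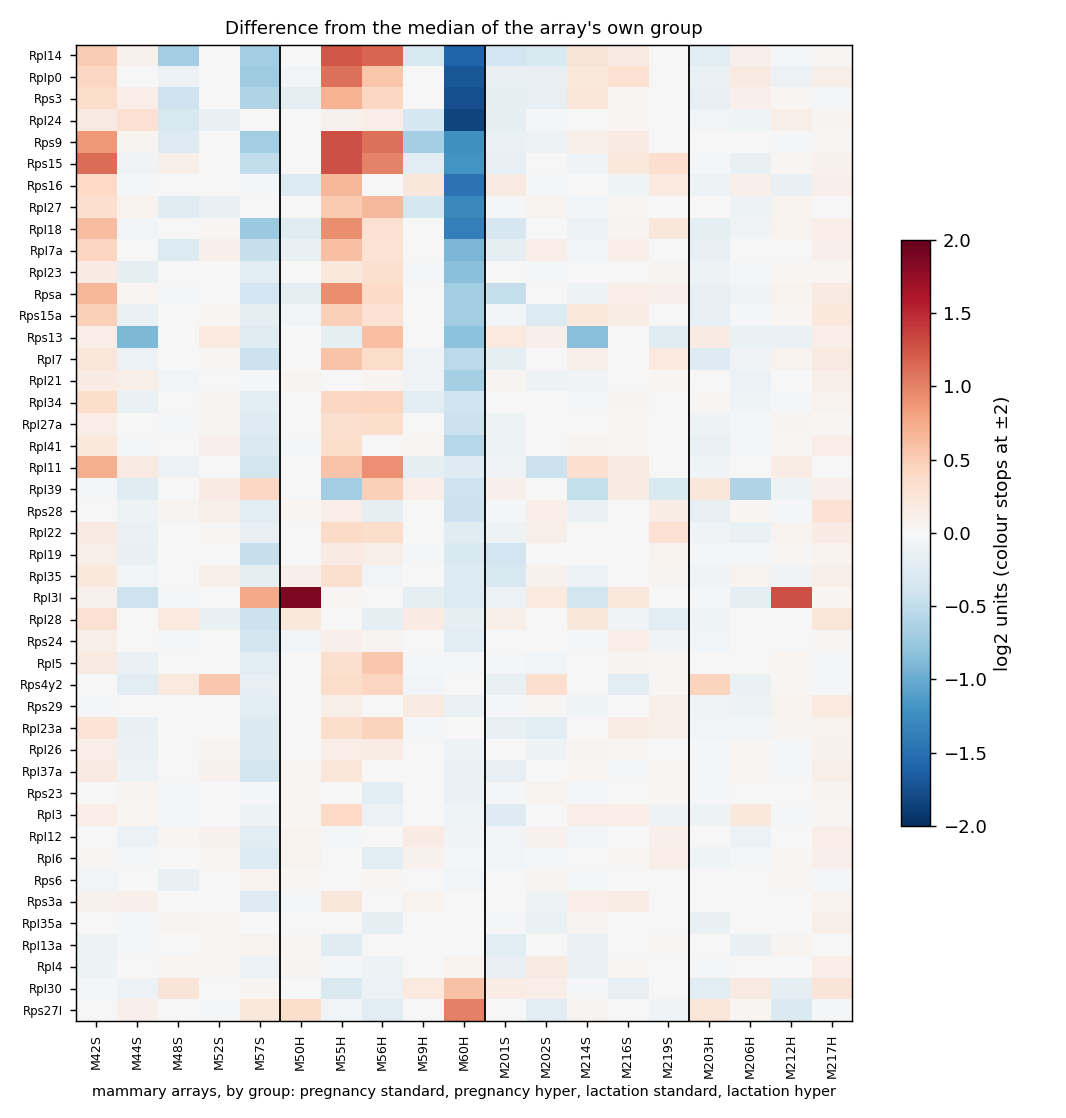
Difference of each of the 45 genes (rows) from the median of its own group on each mammary array (columns), in log2 units from blue (lower) to red (higher). Genes are ordered by their value on M60H, where Rpl14 and Rplp0 are among the lowest and Rps27l is the highest.

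For most members the spread was larger in pregnant than in lactating mammary gland. Of the 45 genes 36 had a larger SD over pregnant than over lactating mammary arrays at standard gravity. In hypergravity 41 did, and 36 without M60H. The same count was not made over all probe sets or in the other tissues, so it is not a trait shown to be the family's own. These genes also share the same few arrays. Rplp0 had an SD of 1.05 in pregnant and 0.16 in lactating hypergravity mammary gland, and Rpl4 had 0.07 and 0.07. The pooled SD within mammary groups was 0.05 for Rps6, 0.11 for Rpl6 and 0.68 for Rpl14, and its median over members was 0.21, or 0.17 without M60H, with 0.16 in liver and 0.17 in adipose tissue. As a description over arrays after group means were taken out, the median correlation between pairs of the 41 brighter genes was 0.51 over 19 mammary arrays and 0.37 without M60H, 0.22 over 20 liver arrays and 0.32 over 19 adipose arrays. The genes outside the family most like its mean over 18 mammary arrays without M60H were Naca (0.93), Eno1 (0.93), Micos13 (0.93), Timm13 (0.92) and RT1-DMa (0.92). In liver they were led by Aup1 (0.84) and in adipose tissue by Tor2a (0.83). All genes of an array share its labelling and scaling.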

How the data were processed

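The authors deposited one table of log2 signals for 31042 probe sets on 72 Affymetrix arrays, made with RMA per the submitters' processing notes; its version and settings are not given in the sources used here. No column of values was left unused (0). Gene names came from the platform annotation. Members and lists were chosen with earlier results of these data known.

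Log2 values were tested as deposited with limma 3.58.1 in R 4.3.3 (group means model, eBayes, Benjamini-Hochberg over all probe sets, two-sided, called at an adjusted p under 0.05). Each tissue had 1 fit, the tissues together 1 and the microgravity set 1. The text names, per comparison, up to 4 called members in each direction with the largest change and no overlap, or the 2 with the smallest p where none is called; in every case Rps6, Rpl5, Rpl11, Rplp0, Rpsa, Rps27l and Rpl3l, and the 3 highest and lowest members of a tissue, without ranking them. Of other lists it names up to 3 called genes. Other members were named after their values were seen. On simulated data for the mammary stage comparison at standard gravity, limma recovered 14 of 50 rises of 0.5, 22 of 50 of 1 and 46 of 50 of 2 log2 units, and 35 of 50 falls (a change of -1). These were drawn from all 31042 probe sets, few of which were changed, while 34.1% were called in the data. The recovery is therefore not that of the members in the real comparison. The rat code in the titles pairs tissues of 1 animal; deviations of same-rat arrays from their group means correlated with medians of 0.126, 0.125 and 0.155 over the 3 tissue pairs. The letters of the microgravity set do not pair (0 of 4 correlations over 0.1 in each pair of groups). Array number limits the precision; detection calls were not used here.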

Additional observations from a re-analysis of the deposited data

Results flagged for a closer look

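For the mean of the members and 10 genes shown, each group was searched for an array far from the rest (165 searches, 9 found; chance alone gives about 1 in 20 groups). The mean of the members on A44S, in pregnant adipose tissue at standard gravity, was 10.79, against 11.02 to 11.04 on the others. By the median of the members A44S was less apart, at 11.58, with A48S at 11.76 and the rest at 11.87 to 12.01. The mean on A48S includes Rpl3l at 9.80, and its part in the gap was not tested. Rpl6 was low on L44S in pregnant liver (11.12 against 11.46 to 11.55) and on M57S in pregnant mammary gland (12.28 against 12.52 to 12.60). Rpl4 was high on M217H in lactating hypergravity mammary gland (12.34 against 12.19 to 12.21). Rps6 was low on flight control array FDSA (12.76 against 13.02 to 13.06). Rpl3l stood out on 4 arrays that carry skeletal muscle genes: A48S (9.80), A217H (8.03), M50H (5.06) and M212H (4.32).

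For some members the stage effect at standard gravity differed between tissues by the test of the difference (limma). Against liver it was lower in mammary gland for Rpl13a (-0.35), the dim Rpl28 (-0.48), Rpl35a (-0.41), Rpl6 (-0.55), Rps23 (-0.33) and Rps3a (-0.38). Against adipose tissue it was lower for Rpl12 (-0.43), Rpl3 (-0.56), Rpl6 (-0.48) and Rps23 (-0.27). The share of members called lower was 13.3% against liver, where 22.1% of all probe sets were called and 11.4% called lower. Against adipose tissue that share was 8.9%, where 21% were called and 11.7% called lower. Both shares were near those of all probe sets called lower. Rpl28 lost its call without M42S or L201S, among others, and Rpl6 against adipose tissue lost it without A52S or A219S, among others.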

How the results depend on the processing

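Of 28 comparisons, 18 called no member, and that held in each of the alternatives run, 70 of them leaving out 1 array. The other 10 kept the direction of their median in all alternatives, except mammary lactation against pregnancy in hypergravity, at -0.01 without M60H. Counts called that moved over 1.5 times are as follows, with the share of all probe sets called in the same fit as a percentage. For fits without 1 array these shares are given above where the count moved. Mammary lactation against pregnancy at standard gravity (8) had 5 without arrays carrying another tissue's markers (32.2%) and 15 with array weights (43.3%). It had 4 with dim probe sets filtered (55.4%) and 4 with median centring (34.0%). Leaving out 1 array gave 4 to 9. In hypergravity (8) it had 1 from the compared groups alone (19.1%), and 2 to 11 without 1 array. Mammary against adipose in pregnancy (18) gave 10 from the compared groups alone (33.3%), and in lactation (6) it gave 10 with array weights (36.8%). Liver against adipose in pregnancy (23) gave 14 with median centring (42.6%) and 13 from the compared groups alone (28.3%). In lactation (12) it gave 23 with array weights (40.9%), 25 with new quantile normalization (33.1%) and 3 with median centring (38.6%). Mammary against liver in lactation (30) gave 15 with median centring (37.9%). The stage effect of mammary against liver (6) gave 17 with array weights (32.9%) and 11 with quantile normalization (22.2%). That of mammary against adipose (4) gave 2 without other-tissue arrays (20.1%), 2 with median centring (20.8%) and 1 from the compared groups alone (19.1%). The cause was not tested. With the rat as a replicate block (paired tissues), mammary against liver in pregnancy kept 34 called (52.6%) and liver against adipose gave 25 (38.2%). The block moved no count over 1.5 times. Rpsa in pregnant mammary gland against liver reversed to -0.28 at its probe set without a suffix for shared sequences. Counts without the 4 dim members were added after seeing the data and moved no count over 1.5 times. Of 53 gene results 11 lost their call without some array.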

Other observations

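The 35 probe sets with several ribosomal protein or pseudogene symbols, which cannot be given to one gene, were measured in the same fits. Between pregnant mammary gland and liver 21 were higher and 1 lower, with a median of 0.40, where 50.4% of all probe sets were called and 25.1% called higher. In lactation 19 were higher and none lower, with a median of 0.35, where 35.4% were called and 19.6% called higher. With lactation in the mammary gland at standard gravity 1 rose and 3 fell (median -0.02), where 34.1% of all probe sets were called. In hypergravity 2 rose and 2 fell (median 0.22), where 29.3% were called.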
